A study of Homo sapiens with 2 samples.

Results

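MKI67, FOXM1, MYBL2, LIN9 and LIN54 are 5 of the 23752 genes and transcripts measured on a pair of microarrays of HepG2 cells, and they are described here probe by probe. MKI67 was chosen by its measured HTE over DMSO log2 ratio on these same arrays, for the size of its fall, and the other 4 genes were added as regulators of its transcription. That ratio is therefore a description and supports nothing about MKI67. Every probe that targets a RefSeq transcript of a member was kept, which gave 3 probes for MKI67, 2 for LIN9 and 1 each for FOXM1, MYBL2 and LIN54.

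HepG2 is an established cell line grown from a human liver tumour and widely used as a model of the hepatocyte. Cells were treated for 24 h with hawk tea extract (HTE), a herbal tea preparation studied for its cholesterol-lowering action, or with DMSO at 1‰, the vehicle control. The labels give 200 µg/mL of extract, whereas the deposited output of the HTE array carries 300 in its name, so the dose behind these values is uncertain. The study's own text gives the higher of these for the arrays. Total RNA was labelled with cyanine-3 and each condition was hybridised to 1 Agilent array, both on the same slide, which leaves no replicate, no test and no error between cultures. Of the 58717 non-control spots, Agilent's flag put 60.6% well above background with DMSO and 56.6% with HTE, and 0 were saturated. All 13 hepatocyte and hepatoma markers were well above background on both arrays, 6 with a lower and 7 with a higher level on HTE. The lowest log2 ratios (HTE over DMSO, each array scaled to the 75th percentile of its spots) were those of the fibrinogen chains FGA (-1.11), FGG (-0.58) and FGB (-0.36), and the highest were APOA1, SERPINA1 and APOA2 (each 0.21).

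MKI67 encodes Ki-67, a large protein of cycling cells that coats the mitotic chromosomes, keeps them apart from each other and is stained in pathology to count dividing tumour cells. Its transcription peaks late in the cell cycle. LIN9 and LIN54 are subunits of MuvB, a core complex that changes partners through the cycle: with the p130 pocket protein and E2F4 it forms the repressive DREAM complex, and with B-MYB, the product of MYBL2, and then the forkhead factor FOXM1 it activates genes of G2 and mitosis. LIN54 binds the CHR element (cell cycle genes homology region) in the promoters of these genes.

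The promoters are shown so that the CHR, which LIN54 binds, can be looked for in each member. RefSeq promoters (GRCh38.p14, 250 bases before the start and 50 after it) were listed for 4 of the 5 genes and not for FOXM1. Each line is written 5′ to 3′ on the strand of the gene, and capitals mark the CHR (TTTGAA or TTCGAA) and the CCAAT box on either strand (ATTGG when read from the other strand):
MKI67, chr10:128126374-128126673, minus strand: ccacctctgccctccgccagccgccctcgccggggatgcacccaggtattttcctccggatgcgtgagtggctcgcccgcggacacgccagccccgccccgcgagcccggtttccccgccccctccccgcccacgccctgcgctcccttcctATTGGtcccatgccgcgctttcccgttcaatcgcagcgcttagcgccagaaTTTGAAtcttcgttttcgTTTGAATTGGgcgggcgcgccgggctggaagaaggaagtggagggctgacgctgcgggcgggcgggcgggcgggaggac
LIN54, chr4:83010774-83011073, minus strand: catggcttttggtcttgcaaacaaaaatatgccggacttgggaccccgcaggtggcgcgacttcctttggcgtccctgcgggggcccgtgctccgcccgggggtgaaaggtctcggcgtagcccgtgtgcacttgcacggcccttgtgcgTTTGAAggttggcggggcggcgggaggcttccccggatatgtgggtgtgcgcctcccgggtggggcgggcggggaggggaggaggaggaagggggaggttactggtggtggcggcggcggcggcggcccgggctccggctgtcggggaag
LIN9, the third listed start, chr1:226309115-226309414, minus strand: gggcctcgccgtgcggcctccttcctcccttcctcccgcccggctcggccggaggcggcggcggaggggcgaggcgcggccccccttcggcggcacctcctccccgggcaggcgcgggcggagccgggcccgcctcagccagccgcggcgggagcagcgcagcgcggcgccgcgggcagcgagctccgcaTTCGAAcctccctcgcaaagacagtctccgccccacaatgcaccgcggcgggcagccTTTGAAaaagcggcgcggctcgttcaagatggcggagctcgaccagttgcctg
MYBL2, chr20:43666864-43667163, plus strand: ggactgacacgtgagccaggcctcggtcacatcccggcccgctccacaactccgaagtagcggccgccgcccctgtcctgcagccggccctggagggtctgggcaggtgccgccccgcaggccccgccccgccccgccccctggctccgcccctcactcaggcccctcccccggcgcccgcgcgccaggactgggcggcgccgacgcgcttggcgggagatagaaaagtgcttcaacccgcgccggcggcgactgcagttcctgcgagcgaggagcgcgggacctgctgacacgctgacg

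MKI67 held the CHR at -47 and -29 from the start and a CCAAT box at -98 and -24, the latter overlapping the nearer CHR. LIN54 held a single CHR at -100. LIN9 has 3 listed starts: the first window held no motif searched, the second held a MYB motif at -160, and the third held the CHR at -60 and -3 and a MYB motif at 41. MYBL2 held none of the motifs searched. Among the first listed promoters of 27305 genes, 16.6% held a CHR and 35.7% a CCAAT box. The other motifs searched on both strands were the forkhead motif TGTTTA, found in 12.4% of promoters, the MYB motif TAACNG or CAACNG in 46.3%, and the E2F motif TTTCCCGC, TTTGGCGC, TTTCGCGC or TTTGCCGC in 3.33%. None of these other motifs was found in the MKI67, LIN54 and MYBL2 windows, which says only that those letters are not there.

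All 5 genes gave a lower signal on the HTE array than on the DMSO array in each of their 8 probes, and every one of these probes was well above background on both arrays. Across all genes, 49.0% were lower by any amount. By their brightest probe, 2 of the 5 genes, MKI67 and FOXM1, were at least 2-fold lower, the cutoff of the study's methods, where 3.03% of the 23752 genes were 2-fold lower and 5.25% were 2-fold higher. Since the members were chosen with their ratios known, nothing is read from this contrast. In RNA from a whole culture, fewer cycling cells and less of these transcripts in each cycling cell cannot be told apart. Counted by probe, 4 of the 8 passed 2-fold, beside 2.90% of the 29680 probes measured. These were all the MKI67 probes and the FOXM1 probe. The probe count thus gives the gene chosen for its fall more weight, and nothing is read from it either.

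**Figure D1:**
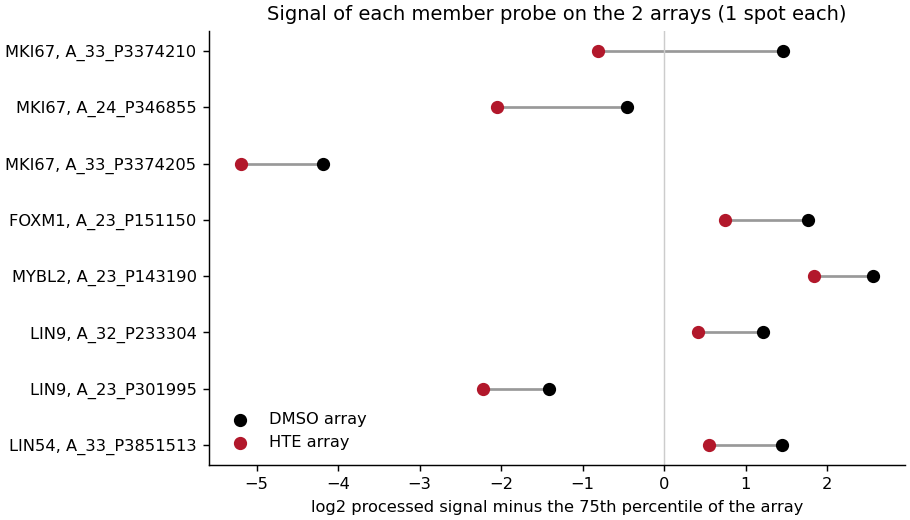
Log2 signal minus each array's 75th percentile for the 8 probes of the 5 genes, with the DMSO value (black) and the HTE value (red) of a probe joined by a horizontal line. HTE lies to the left of DMSO in all 8, with the longest line for the brightest MKI67 probe (1.46 to -0.81), and positions may be compared along a line but not between probes.

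By its brightest probe MKI67 had the largest fall of the 5 genes, which is the trait it was chosen for. Its brightest probe read 11059 intensity units on the DMSO array and 2039 on the HTE array. After each array was scaled to its 75th percentile, these are log2 levels of 1.46 and -0.81, a log2 ratio of -2.27 or 4.82-fold lower. In the order of all 23752 genes from the lowest ratio up, MKI67 was at position 16, with 0.0632% of genes lower. That position was 84 with dim probes of other genes at their own value and 110 with each gene as the mean of its probes. Its signal was 330 times the local background on the DMSO array and 68.0 times on the HTE array, so neither reading was limited by background.

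The other MKI67 probes gave smaller ratios in the same direction. The second probe read 2930 on DMSO and 860 on HTE, a log2 ratio of -1.60. The dimmest read 222 and 97.6, a log2 ratio of -1.01, and was only 7.92 and 3.75 times its local background. The mean over the 3 probes was -1.63 ± 0.63 (SD, 3 probes of 1 hybridisation per condition, not replicates). In the main processing the probes therefore give a single direction for MKI67 and a size anywhere from 2.02-fold to 4.82-fold lower. Other processing moved these limits: the dimmest probe was at -0.60 with normexp background correction, and the brightest at -3.49 with spike-in scaling.

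A spread of 1.25 between the highest and lowest probe ratio was wide for this array pair. Among the 512 genes with 3 measured probes the median spread was 0.36. Counting MKI67 itself, 16 of them, or 3.12%, were spread at least as widely as MKI67. The low end of its spread is the brightest-probe ratio that MKI67 was chosen on, and most of the 512 genes had smaller mean changes. Its place among them is therefore only a description. In 4 of these 512 genes all probes were at least 2-fold lower: SPTLC3 (mean log2 ratio -1.66), MKI67 (-1.63), FANCA (-1.38) and FGA (-1.25). The brightest MKI67 probe moved most; in the 5 such genes with 3 probes whose mean was at least 2-fold lower, the brightest probe moved most in 3, and in the 58 with 2 probes in 21. Each member probe was printed in 1 spot. For probes printed in 5 or more spots, the SD of the ratio over spots had a median of 0.05 and a 95th percentile of 0.15, so the gap between MKI67 probes was larger than the spot error.

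**Figure D2:**
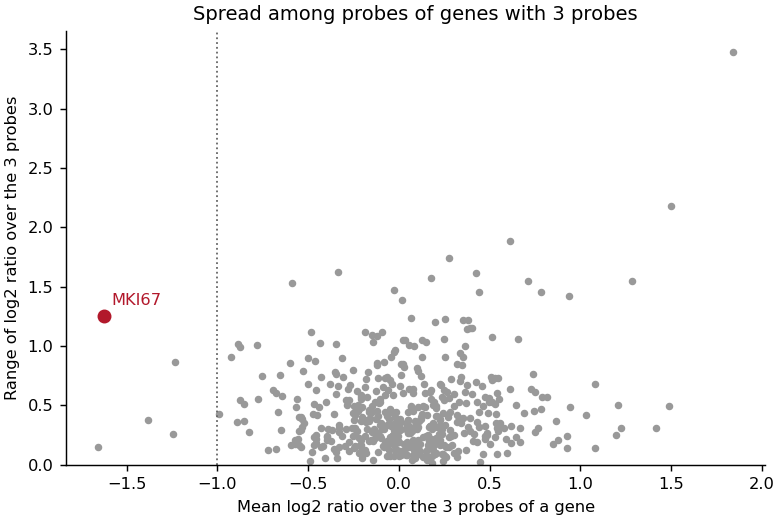
Mean log2 ratio over the 3 probes of a gene (horizontal axis, dotted line at 2-fold lower) against the spread from highest to lowest probe (vertical axis), 1 point for each of the 512 genes with 3 measured probes. MKI67, in red at a mean of -1.63 and a spread of 1.25, lies above the 95th percentile of spread, 1.12.

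FOXM1, the forkhead factor that switches on genes of mitosis, read 13610 on DMSO and 6014 on HTE. Its log2 levels were 1.76 and 0.75, a ratio of -1.01 (2.01-fold lower), just inside the 2-fold cutoff. LIN54, the CHR-binding subunit of MuvB, was just outside it: 10965 on DMSO and 5249 on HTE, a log2 ratio of -0.89 (1.86-fold lower).

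LIN9, the MuvB subunit that contacts B-MYB, was measured by a pair of probes that differed by less than the spot error. The brighter read 9302 and 4744, a log2 ratio of -0.80, and the dimmer 1506 and 763, a ratio of -0.81. Both LIN9 probes thus gave about 1.75-fold lower signal with HTE.

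MYBL2, the gene of B-MYB, gave a signal 625 times the local background on DMSO and 308 times on HTE. The probe read 23742 on DMSO and 12765 on HTE. Its log2 levels of 2.56 and 1.84 differ by -0.72 (1.65-fold lower), the smallest ratio of the 5 genes.

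The 4 regulators lay within 0.28 of each other on the log2 scale, whereas MKI67 was 1.26 below FOXM1, the lowest of them, by brightest probes. With the dimmest MKI67 probe that distance closes, since its -1.01 equals the FOXM1 ratio to the second decimal. Ordered by their ratios, MKI67 came first, then FOXM1 (position 704 of all genes, 2.96% lower), LIN54 (996, 4.19%), LIN9 (1324, 5.57%) and MYBL2 (1666, 7.01%). Neighbours among these 4 regulators differ by less than 0.15, the 95th percentile of the spot error. No error between cultures can be set beside that order.

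**Figure D3:**
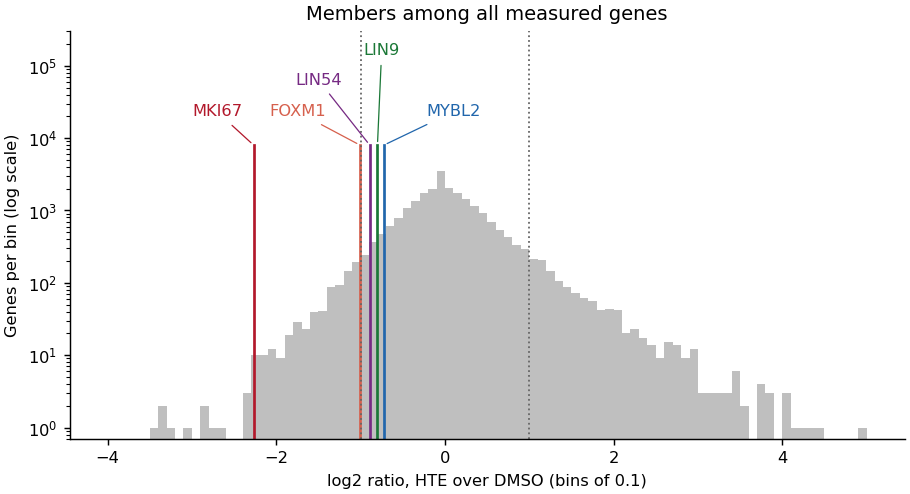
Distribution of the HTE over DMSO log2 ratio over the 23752 measured genes (number of genes per bin of 0.1, log scale), with the 5 members as vertical lines and dotted lines at 2-fold. MKI67 (-2.27) is in the far lower tail and FOXM1 (-1.01), LIN54 (-0.89), LIN9 (-0.80) and MYBL2 (-0.72) are close together on its shoulder.

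Position and background on the slide were read for the member spots. Neighbouring spots of the 8 probes had median log2 ratios between -0.05 and 0.12, against member ratios of -0.72 and lower. Agilent's flag for a non-uniform local background was set for 4 of the 8 spots on DMSO and 2 on HTE, where 36.0% and 26.7% of all spots carry it.

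The genes most like MKI67 over these arrays can be ranked only by the single ratio. Among the 14633 named genes with a signal clear of background in both conditions, those just below it were CYP24A1 (-2.85), a vitamin D-degrading enzyme, HOXD1 (-2.89), SLC6A14 (-3.28), an amino acid transporter, and DKK4 (-3.31), a Wnt inhibitor. Just above it were HAMP (-2.25), which encodes the iron hormone hepcidin, LINC00298 (-2.25), GSTA2 (-2.22), a glutathione transferase, and TNS4 (-2.20). None of these 8 is a cell cycle gene of the lists used here. Of 89 other cell cycle genes in those lists, 0 had a lower ratio than the brightest MKI67 probe. By the mean of its probes 5 of the 89 were lower, by its second probe 6 and by its dimmest 43, so the place of MKI67 at the bottom of this set holds for the brightest probe only.

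The rest of the complexes to which the members belong did not move as one. In the MuvB core, LIN54 and LIN9 were followed by LIN52 (-0.62), the subunit that links MuvB to its partners, while RBBP4 (-0.08), a histone-binding protein shared with other complexes, and LIN37 (0.22), needed for DREAM repression, were near 0. Of the partners that turn MuvB into DREAM, RBL1, which encodes the pocket protein p107, read 1583 on DMSO and 399 on HTE, a log2 ratio of -1.82. TFDP1, the dimer partner of E2F factors, was at -0.79. TFDP2 (-0.28), RBL2 (-0.21), which encodes p130, E2F4 (-0.21), DYRK1A (0.05), the kinase that assembles DREAM, and E2F5 (0.20) lay between -0.28 and 0.20. DYRK1A had no settled direction, since the mean over its probes was -0.46. Without LIN9 and LIN54, 7 of these 10 genes were lower and 1 at least 2-fold, with a median of -0.21 beside 0.00 over all genes. Across all genes 49.0% were lower and 3.03% at least 2-fold lower. In the MYB family, MYBL1 (-1.04), best known from germ cells, was at least 2-fold lower along with the smaller change of MYBL2, and MYB itself was at 0.08.

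Kinases and cyclins that act on FOXM1 or B-MYB were mostly lower. PLK1, the mitotic kinase that phosphorylates FOXM1, was at -1.74 and CCNA2, which encodes cyclin A, at -1.73. MELK (-1.08), CCNB1 (-0.91), CDK2 (-0.88), CCNF (-0.83), which limits B-MYB activity, CDK1 (-0.72) and CCNE1 (-0.66) were lower too. FZR1, which directs the destruction of FOXM1 as cells leave mitosis, was at 0.47. In this list 8 of 9 genes were lower and 3 at least 2-fold, beside 49.0% and 3.03% of all genes. The median was -0.88, and the list was written with earlier results known. PLK1, CCNA2, CCNB1, CCNF and CDK1 are also in the list of G2 and mitosis genes below, and CCNE1 in that of S-phase entry. These lists are therefore not separate.

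Known targets of FOXM1 and B-MYB with MuvB, the genes of G2 and mitosis, were lower in 51 of 51 measured cases. Their median log2 ratio was -1.02 and 28 were at least 2-fold lower. Across all genes 49.0% were lower and 3.03% at least 2-fold lower. The list was written with earlier results of these data known, so nothing is read from this contrast. The list has 52 genes, of which UBE2C had no probe named here. PLK1 (-1.74), CCNA2 (-1.73) and BUB1B (-1.54), a spindle checkpoint kinase, were the lowest. AURKB (-0.33), CKS2 (-0.26) and CKS1B (-0.08) were the highest. CKS1B was at -0.26 as the mean of its probes and at 0.15 with normexp background correction. FOXM1 sat close to the median of its targets: CDCA3 (-1.01), CDC25C (-1.02), TACC3 (-1.02), PIMREG (-1.02) and BUB1 (-1.05) were within 0.1 of it. In all, 18 of 168 listed genes were that close. Genes outside the late targets were among them, such as MYBL1 (-1.04), UNG (-0.97), CCNE2 (-1.05) and FOXO1 (-1.08). MYBL2 had 19 of 168 within 0.1, among them CDK1 (-0.72), MSH6 (-0.73), E2F2 (-0.74), SLBP (-0.74) and MCM3 (-0.75). CDK1 was near it by the brightest probe only, since the mean over the CDK1 probes was -0.36.

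Genes of the earlier wave, switched on by E2F factors for entry into S phase, were lower to a similar degree. All 37 measured were lower and 16 at least 2-fold, beside 49.0% and 3.03% of all genes, with a median of -0.90. This list too was written with earlier results known. RRM2 (-2.14), which makes deoxynucleotides, E2F8 (-2.01) and CDC6 (-1.77), which licenses replication origins, were the lowest, and TYMS (-0.59), PCNA (-0.50) and RRM1 (-0.48) the highest. MYBL2, itself known as an E2F target, was above the median of this wave.

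**Figure D4:**
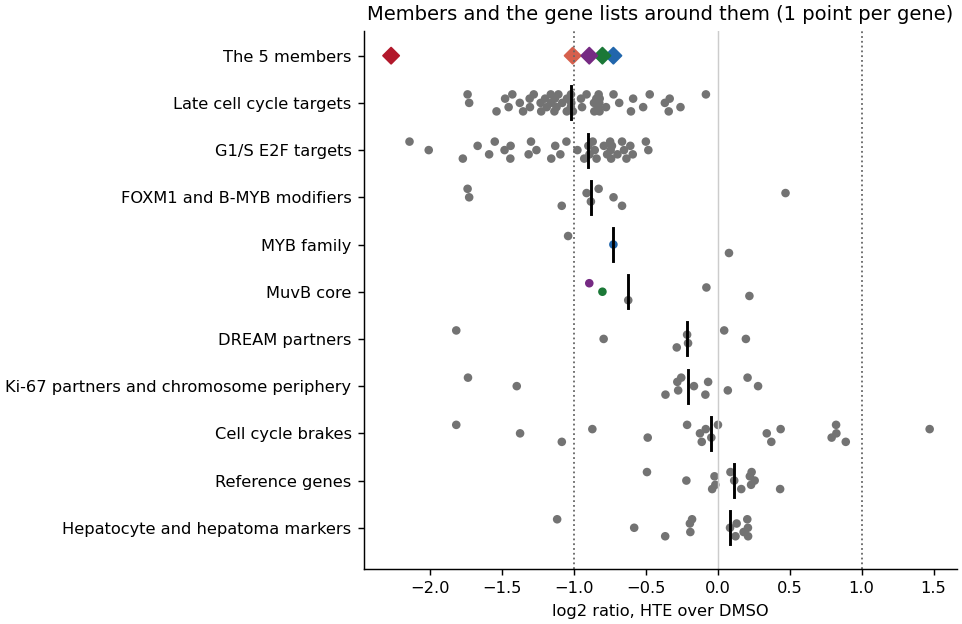
HTE over DMSO log2 ratio of each gene in the lists, 1 line per list below a line of the 5 members as diamonds, with members in colour, the list median as a black bar and dotted lines at 2-fold. The late cell cycle targets (median -1.02) and the G1/S E2F targets, the S-phase entry genes (-0.90), lie to the left of 0 throughout, while the brakes (-0.04) and reference genes (0.12) lie on both sides.

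The CHR and CCAAT elements of the MKI67 promoter were common among the late targets. Of 45 late targets with a promoter in the table, 32 (71.1%) held a CHR and 35 (77.8%) a CCAAT box, against 16.6% and 35.7% of all promoters. The list is of known MuvB targets and MuvB binds the CHR through LIN54, so a high CHR share may be built into it. Of 30 S-phase entry genes, 2 (6.67%) held a CHR, and 17 (56.7%) held the E2F motif. Those exact letters were not found in the MKI67 window, nor in that of MYBL2, itself known as an E2F target. Within the late targets the 32 with a CHR had a median log2 ratio of -1.05 and the 13 without it -1.02. For the CCAAT box the medians were -0.95 for the 35 with it and -1.11 for the 10 without. Only the first listed promoter of a gene was searched here, and whether either element bears on the ratio was not tested. Over all genes with a promoter in the table the medians were -0.06 for the 1406 with a CHR and 0.00 for the 10685 without.

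Proteins that work with Ki-67 on the chromosome surface showed mixed ratios. KIF15 (-1.73), a spindle motor, and CDCA2 (-1.40), which carries a phosphatase to chromatin, were at least 2-fold lower, and BOP1 (-0.36), a ribosome assembly factor, came next. NIFK (0.07), which binds the forkhead-associated domain of Ki-67, and the phosphatase catalytic subunits PPP1CA (0.21) and PPP1CC (0.28) were the highest, and all of these turned negative under spike-in scaling (-1.15, -1.01 and -0.94). The list of 12 had a median of -0.21 with 9 lower, where 49.0% of all genes were lower and 3.03% at least 2-fold lower.

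Genes that hold cells out of the cycle went both ways beside the members. Of 19 measured, 10 were lower and 9 higher, with a median of -0.04, although 1 alone was higher when the arrays were aligned on spike-in RNA. Across all genes 49.0% were lower and 3.03% at least 2-fold lower. RBL1 (-1.82), E2F7 (-1.37), a repressor of E2F targets, and FOXO1 (-1.08) were at least 2-fold lower. CCNG2, an atypical cyclin of arrested cells, read 167 on DMSO and 412 on HTE, a log2 ratio of 1.47. CDKN1A, which encodes the cyclin-dependent kinase inhibitor p21, read 927 and 1459, a log2 ratio of 0.83 that turned to -0.40 under spike-in scaling. CDKN2B was well above background on HTE only, where it was at least 1.85-fold higher, a bound that is lost under spike-in scaling. Reference genes, taken as unrelated to the cycle, ranged from -0.49 (TBP) to 0.43 (GAPDH) with a median of 0.12 over 13.

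Markers of other cell types were read to check the sample. Of 12, CD3E, CDH5 and KRT5 were not well above background on either array, and COL3A1 was above it on DMSO only. Of the 9 measured, 4 were lower on HTE and 4 higher. The lowest were PECAM1 (-1.82), CD14 (-1.77) and VWF (-0.63), and the highest were DES (0.70), CD68 (0.46) and PTPRC (0.14). Their summed signal was 11623 on DMSO and 9563 on HTE. Their part in the member ratios was not tested.

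Scaling sets the size of every ratio here. With arrays aligned on the E1A spike-ins, control RNA added in fixed amounts, the median gene shifted by -1.22. MKI67 then came to -3.49, FOXM1 to -2.23 and MYBL2 to -1.95. The 8 spike-in probes did not give 1 value: their unscaled log2 ratios ran from 0.45 to 1.57 with a mean of 1.05, so the size of this shift is uncertain. Under it 18 of the 63 named genes changed sign, LIN37, E2F5, MYB, FZR1 and GAPDH among them, and the 5 members did not. With no scaling MKI67, FOXM1 and MYBL2 were at -2.44, -1.18 and -0.90. The distance of 1.26 between MKI67 and FOXM1 does not depend on a scaling by 1 factor per array.

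**Figure D5:**
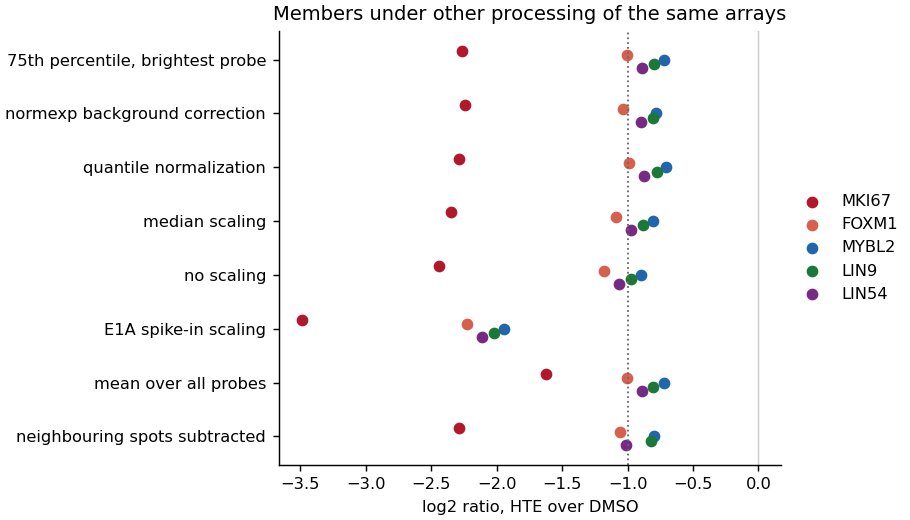
Log2 ratio of each of the 5 genes as reported (top line) and under 7 processing alternatives, 1 colour per gene, with a dotted line at 2-fold lower. All 5 genes are below 0 under every alternative drawn, and the E1A spike-in scaling moves them furthest (MKI67 to -3.49).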

How the data were processed

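Gene expression in DMSO-treated and HTE-treated HepG2 cells was measured on 1 one-colour Agilent SurePrint array each. The authors deposited Feature Extraction output (version 11.5.1.1 per the file headers, 10.7 in the submitters' processing notes), whose processed intensity per spot is background-subtracted on a linear scale, with spot flags. These flags are used here as deposited. The intensities were divided by the 75th percentile of each array's non-control spots and log2 transformed. Outlier spots were left out and spots of a probe averaged.

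Probes well above background in at least 0.5 of their spots on 1 or more arrays were kept. Where a probe was above background on 1 array only, its ratio is a bound against the lowest signal above background. The array annotation follows hg19. Of 50532 probes, 28142 were named through RefSeq (GRCh38.p14), and the brightest probe stands for a gene. Named genes are all members, for each list the 3 lowest and 3 highest (all in lists of 9 or fewer), 4 genes on either side of MKI67 in order of ratio, and list genes within 0.1 of FOXM1 or MYBL2. Members and lists were chosen with earlier results of these data known. With 1 array per condition no test was run, and the number of arrays limits the precision. Alternatives were background correction (normexp in limma 3.58.1, R 4.3.3, offset 50, on the spot median signal), scaling, filters, outliers, probe rule, array position and cutoff. Other steps used Python 3.11.15, numpy 2.4.6, pandas 2.3.3 and matplotlib 3.10.9, and were tested on simulated data.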

Additional observations from a re-analysis of the deposited data

How the results depend on the processing

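No paired analysis was possible because each condition has 1 array. All 5 genes were lower under every alternative run, in their brightest probe. Scaling moved the sizes. With the E1A spike-ins, MKI67 was at -3.49, FOXM1 -2.23, LIN54 -2.11, LIN9 -2.02 and MYBL2 -1.95, with 5 members at least 2-fold lower; with no scaling, which shifted the median gene by -0.17, they were at -2.44, -1.18, -1.06, -0.97 and -0.90; with the array median they were at -2.35, -1.09, -0.97, -0.88 and -0.80. MKI67 was -1.63 as the mean of its probes. By its second brightest and dimmest probes, a choice made after seeing the data, it was -1.60 and -1.01. The dimmest probe was at -0.60 with normexp. Correction for neighbouring spots gave -1.06 for FOXM1, -1.01 for LIN54 and -0.80 for MYBL2, and normexp gave -0.78 for MYBL2. FOXM1 was at -0.99 after quantile normalization, leaving 1 member past 2-fold. At 1.5-fold 5 members passed and at 3-fold 1. The late targets had medians of -2.24, -1.19 and -1.10 (E1A, no scaling, array median), the S-phase entry genes -2.12, -1.07 and -0.98, the MuvB and DREAM subunits -1.43, -0.38 and -0.29, and the brakes -1.27, -0.21 and -0.12. Late targets at least 2-fold lower numbered 51 with E1A, 44 at 1.5-fold and 2 at 3-fold. Late targets were lower in 51 of 51 except with normexp, where 50 were. Of the brakes, 1 was higher with E1A, against 9. Genes at least 2-fold lower across the array numbered 16205 with E1A, 1270 without a filter and 1209 without scaling, against 720. They numbered 468 with normexp and 1320 with dim probes at their own value. With the cutoff at 1.5-fold 2505 genes were lower, and at 3-fold 129. Genes at least 2-fold higher numbered 142 with E1A, 2297 without a filter and 825 with normexp, against 1248. With the cutoff at 1.5-fold 2953 genes were higher, and at 3-fold 422. Of genes changed at least 2-fold, 63.4% were higher, 42.2% without scaling, 0.869% with E1A and 50.4% with dim probes at their own value. The E1A scaling changed the sign of 18 of 63 named genes, all from above to below 0, among them CDKN1A (-0.40), FZR1 (-0.75), GAPDH (-0.79), PPP1CC (-0.94), PPP1CA (-1.01), E2F5 (-1.03), MYB (-1.14), NIFK (-1.15) and DYRK1A (-1.18). As the mean of their probes DYRK1A was at -0.46, PTPRC at -0.37, CDK1 at -0.36 and CKS1B at -0.26. The cause of these shifts was not tested. The limits are 1 culture per condition, 1 spot per member probe, and a dimmest MKI67 probe near background.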

Other observations

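Genes that pathologists and expression assays read together with MKI67 as proliferation markers were lower in 16 of 16 measured. Of these, 7 were at least 2-fold lower, and the median log2 ratio was -0.88. Across all genes 49.0% were lower and 3.03% at least 2-fold lower, and the markers were listed with earlier results known. MKI67 and MYBL2 belong to this list. Every other measured gene of it except GMNN is also in the late target or S-phase entry list, so this count is not separate from theirs. The lowest were MKI67 (-2.27), RRM2 (-2.14) and MCM2 (-1.44), a subunit of the replicative helicase. PCNA (-0.50), the sliding clamp of DNA polymerase, PTTG1 (-0.34), which encodes securin, and GMNN (-0.32), an inhibitor of relicensing, were the highest. MKI67 was the lowest only by its brightest probe, the value it was selected on; by the mean of its probes (-1.63), its second (-1.60) or its dimmest (-1.01), RRM2 was lower.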
